A study of Mus musculus with 4 samples.

Results

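The last interval of an osteoclast culture, from day 5 to day 7, was described across all annotated genes of 45037 probe sets (all but the 64 controls) with 1 array at each time, 2 of the 4 arrays of the series. Osteoclasts are the multinucleated cells that resorb bone. They form when precursors of the macrophage lineage fuse under M-CSF, which keeps the precursors alive, and RANKL, whose receptor RANK signals through NF-kappaB and AP-1 to the transcription factor NFATc1. A mature osteoclast seals off a patch of bone with a ring of podosomes, acidifies it with the proton pump V-ATPase and a chloride channel, and digests its collagen with cathepsin K.

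Female C57Bl/6J mice, aged 12 weeks, gave the marrow, which was first kept for 3 days with 10% serum and 10 nM vitamin D3. The day 5 and day 7 cultures then received M-CSF at 20 ng/ml and RANKL at 40 ng/ml, with vitamin D3 still at 10 nM. The labels give them 4 and 6 days of differentiation under all of these agents, while the protocol puts the 3 days with vitamin D3 before the cytokines. The times were taken here as total time in culture, and the time with cytokines, which is shorter if the protocol holds, is not stated separately. The day 1 array (marrow on the day it was taken) and the day 4 array (after vitamin D3 alone) are used only to set levels beside those of days 5 and 7. No array of day 5 or day 7 lacked the cytokines, so differences between them cannot be told apart from those of time in culture. Whether the samples share a culture is not stated. With 1 array per time there is no replicate check and no p-value, and every value describes these arrays.

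All 4 arrays are labelled as primary osteoclasts. On days 5 and 7 the defining osteoclast genes were well above the floor of 32.4 signal units that was applied to every array: the signal of Acp5, the tartrate-resistant phosphatase, was 10665 on day 5 and 12208 on day 7, and that of Ctsk, cathepsin K, was 12602 on day 5 and 13694 on day 7. Calcr, the calcitonin receptor of mature osteoclasts, had signals of 0.732, 16.5, 95.1 and 398 on days 1, 4, 5 and 7, so it passed the floor on days 5 and 7. Markers of other marrow cells were present as well. The 27 measured stromal and osteoblast markers had a summed signal of 68695 on day 5 and 41446 on day 7, and the 20 neutrophil markers one of 56248 and 20299. In a bulk sample, fewer cells of a type and less RNA per cell cannot be told apart, here and for every cell type list below.

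Of 18193 named genes, 11611 were above the floor on day 5, day 7 or both. At least 2-fold higher on day 7 were 99 of them (0.853%), and at least 2-fold lower were 678 (5.84%), so 12.7% of the genes past 2-fold were higher. Every count of list members given below is to be read beside these shares, and 1 lower member of a list is often near them. Scaling both arrays to the same median gave 183 higher (1.57%) and 491 lower (4.22%), or 27.2% higher, and quantile normalization gave 195 and 423, or 31.6% higher. All 99 higher genes were past 2-fold in the same direction under both scalings, and 409 of the 678 lower genes were. The median log2 difference (day 7 minus day 5) of the 11611 genes was -0.11 as deposited, 0.06 after median scaling and 0.03 after quantile normalization. Medians of the main gene groups are therefore also given relative to that of all genes. Bright genes lay nearer to 0 as deposited, with a median of -0.04 where the higher signal of both days was 1000 to 5000 and -0.004 above 5000. For a list of bright genes with a positive median, the distance from genes of like signal is therefore smaller than that from all genes. Median scaling added 0.18 to each log2 difference, so a gene above the floor on both arrays that was less than 2.26-fold lower as deposited was under 2-fold after it; this holds for every fold given below.

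Differences past 4-fold numbered 9 higher and 70 lower. Of the 99 higher genes, 78 had their highest signal of all 4 arrays on day 7, 15 on day 1 and 6 on day 4. Of the 678 lower genes, 382 were highest on day 5, 216 on day 1 and 80 on day 4, so the lower genes hold both genes that peaked on day 5 and genes with an earlier peak. Probe sets of the same gene, which share the RNA, differed with a pooled SD of 0.26 on the log2 scale, from 0.37 at mean signals up to 100 to 0.08 above 5000. The signal of the beta-actin control at its 3' end was 14318 on day 5 and 14120 on day 7. The 41 spiked control probe sets above the floor had a mean log2 difference of -0.13, a median of -0.06 and an SD of 0.24. Where a gene past 2-fold had other probe sets above the floor, 27 of 30 had the same direction for higher genes and 318 of 331 for lower genes. Fewer were themselves past 2-fold in that direction, 16 of the 30 and 210 of the 331. Among all 11611 measured genes 7503 had a negative difference, so the lower direction was also the common one.

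**Figure D1:**
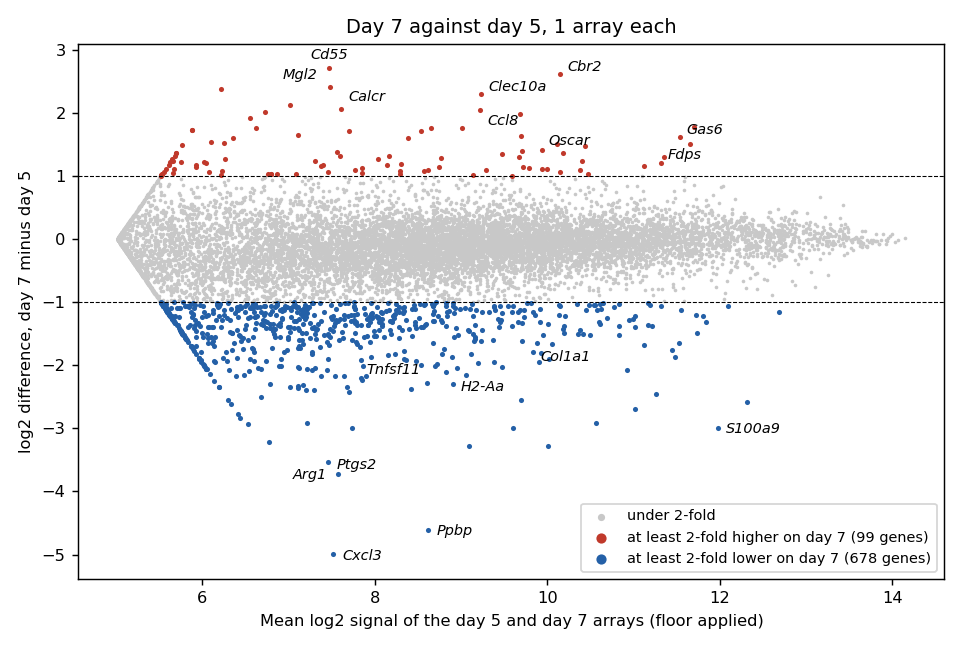
Each point is 1 of 11611 genes, with the mean log2 signal of the day 5 and day 7 arrays on the x axis and the log2 difference, day 7 minus day 5, on the y axis. Red marks the 99 genes at least 2-fold higher and blue the 678 at least 2-fold lower, the dashed lines are the 2-fold thresholds, and the slanted left edges are genes at the floor on 1 of the arrays.

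Genes of the osteoclast itself differed little over this interval, with 2 exceptions. Of 21 osteoclast markers, 2 were at least 2-fold higher and 0 were lower, and 14 had a positive difference (19 after median scaling). Their median was 0.13, which is 0.24 above that of all genes. The calcitonin receptor gene Calcr was 4.19-fold higher. Oscar, a receptor for collagen that costimulates osteoclast formation, had signals of 13.8, 119.8, 601 and 1590.4 on days 1, 4, 5 and 7 and was 2.64-fold higher than on day 5, with a second probe set at 1.30. The fusion genes Dcstamp and Ocstamp stayed under 2-fold, with log2 differences of 0.46 and 0.56. The largest negative difference among the 21 was that of Fos, an AP-1 subunit needed for osteoclast formation, with signals of 3601 on day 5 and 2192 on day 7.

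The acid-secreting machinery was slightly higher. Of 18 measured V-ATPase subunits, 15 had a positive difference and none reached 2-fold, with a median of 0.21 and 0.33 relative to all genes (0.33 after median scaling). Their summed signal was 86259 on day 5 and 100471 on day 7. Atp6v0d2, a subunit that also takes part in fusion, had the largest difference, with signals of 3832 on day 5 and 5301 on day 7. Among 11 genes of acid and ion transport the largest was that of Slc9b2, a sodium-proton exchanger induced in osteoclasts, with signals of 37.5, 463, 1550.2 and 3083 on the 4 arrays and a log2 difference of 0.99, just under 2-fold. After median scaling 1 of the 11 was past 2-fold higher. The anion exchanger gene Slc4a2 and the chloride transporter gene Clcn7 differed by 0.43 and 0.31, with 2 other Clcn7 probe sets at -0.18 and 0.17.

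Lysosomal genes were level or slightly higher. Of 35 hydrolases and lysosomal membrane proteins 24 had a positive difference (31 after median scaling), with a median of 0.14 and 0 past 2-fold (1 higher after median scaling, Glb1). Glb1, the beta-galactosidase, had the largest difference, with signals of 1219 on day 5 and 2211 on day 7, and Ctsh, the aminopeptidase cathepsin H, the lowest, with 5177 on day 5 and 3058 on day 7. Podosome and actin genes had 0 of 34 higher and 1 lower, and their median changed sign with the scaling (-0.03 as deposited, 0.15 after median scaling). The gene past 2-fold was Fscn1, which encodes the actin-bundling protein fascin and is also on the dendritic cell list, at 5214 on day 5 and 1665 on day 7 (3.13-fold lower). Of 17 fusion genes only the disintegrin Adam12 passed 2-fold, 2.90-fold lower at 433 on day 5 and 149 on day 7, and the adhesion genes Cd44 and Cd36 had differences of -0.36 and -0.31. For both lists, 1 lower gene is near or under the share of all measured genes, of which 5.84% were lower.

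**Figure D2:**
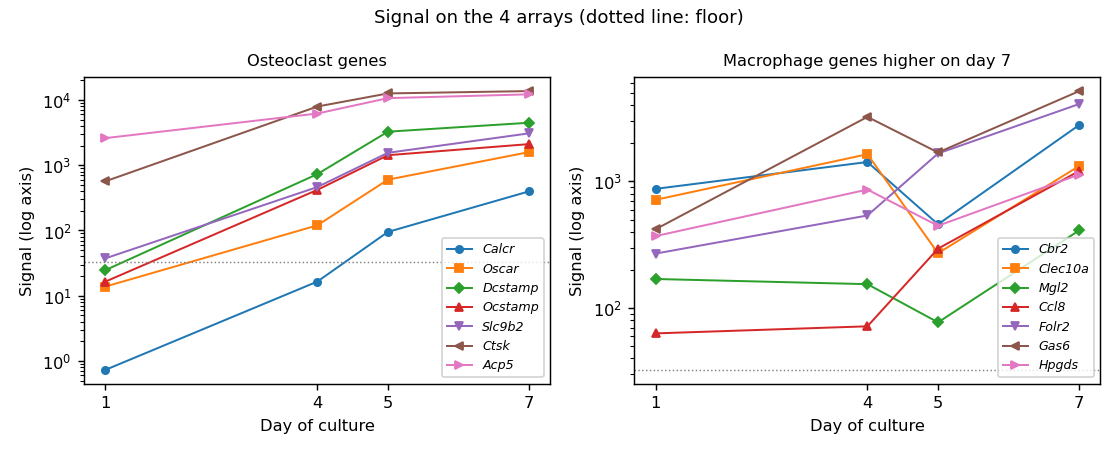
Signal (log axis) on days 1, 4, 5 and 7 for 7 osteoclast genes (left) and 7 macrophage genes at least 2-fold higher on day 7 than on day 5 (right), with 1 array per day and the floor of 32.4 as a dotted line. Ctsk and Acp5 were nearly level between days 5 and 7, while Cbr2, Clec10a, Mgl2, Gas6 and Hpgds were lower on day 5 than on either neighbouring day.

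Genes of the signals that lead to NFATc1 differed by branch: NF-kappaB and AP-1 genes were mostly negative, and NFAT and calcium genes leaned slightly positive. Nfatc1 itself was at 1658 on day 5 and 1814 on day 7, a difference of 0.13, with other probe sets from -0.16 to 0.47, and none of 21 genes of NFAT and calcium signalling passed 2-fold. Of these 12 had a positive difference, with a median of 0.14 (0.26 relative to all genes), and the largest were those of the calcium channel gene Trpv4 (0.80, past 2-fold after quantile normalization at 1.03), the calcineurin regulator Rcan2 (0.72) and the calcium release channel gene Itpr3 (0.68). Of 15 ITAM receptors and adaptors, which costimulate RANK through calcium, 1 was higher, Oscar, and 1 was lower, Sirpb1a (2.88-fold lower). The receptor genes Tnfrsf11a (RANK) and Csf1r (the M-CSF receptor) differed by -0.12 and -0.01. All 19 NF-kappaB subunits and feedback regulators had a negative difference, with a median of -0.38. After median scaling 15 of the 19 were negative, and the median was -0.21. The induced members led this group: Nfkbiz, an inducible regulator of NF-kappaB targets, was at 899 on day 5 and 405 on day 7 (2.22-fold lower, under 2-fold after median scaling), and the feedback genes Bcl3, Nfkbie and Birc3 differed by -0.92, -0.88 and -0.81. Of 21 AP-1 and early response factors 18 had a negative difference and 3 were past 2-fold lower: Fosl1 at 255 on day 5 and 77.3 on day 7, Egr3 at 109 on day 5 and 41.3 on day 7 and Junb at 467 on day 5 and 219.9 on day 7.

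Among 17 measured genes listed as inhibitors of osteoclast formation, 5 were also past 2-fold lower and 0 higher. Whether each of them restrains osteoclasts in this culture was not tested. Id1 and Id3 encode inhibitors of helix-loop-helix transcription factors, and Socs3 an inhibitor of cytokine receptor signalling. Id1 was at 537 on day 5 and 150.4 on day 7, Id3 at 2551 on day 5 and 1073 on day 7 and Socs3 at 1407 on day 5 and 614 on day 7. Pecam1, an adhesion receptor that is also an endothelial marker, was 3.82-fold lower, and the Notch target Hes1 at least 2.04-fold lower. After median scaling Hes1 had a log2 difference of -0.88, and 4 of the 17 were lower. Id1 and Id3 are targets of BMP signals as well. Tnfrsf11b, the gene for the RANKL decoy osteoprotegerin, was below the floor on day 5 and just above it on day 7, at a signal of 36.9.

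Matrix metalloproteinase genes had 3 of 15 lower and 0 higher. Mmp9, the main gelatinase of osteoclasts, was level at 12276 on day 5 and 13352 on day 7. Mmp8, the neutrophil collagenase, was 4.24-fold lower, the inhibitor gene Timp1 2.33-fold lower at 5467 on day 5 and 2347 on day 7, and Mmp19 2.13-fold lower. Timp2 had the only other positive difference, with signals of 3724 on day 5 and 5777 on day 7. Of 15 listed factors through which osteoclasts can act on bone-forming cells 2 were lower, Tnfsf11 and Vegfa, both of which stromal cells also make, and Igf1 had the largest positive difference at 2607 on day 5 and 3791 on day 7.

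Genes of one macrophage state were among the highest differences of the whole array, in both directions. Of 24 measured genes known from alternatively activated macrophages, the state induced by interleukin 4, 5 were higher and 6 lower. The higher ones were Cbr2, a carbonyl reductase, with signals of 874, 1424, 458 and 2795 on days 1, 4, 5 and 7 (6.10-fold higher than on day 5), the galactose-binding lectins Mgl2 with 169, 154, 77 and 411 (5.34-fold) and Clec10a with 716, 1640.3, 271 and 1326 (4.89-fold), the chemokine Ccl8 with 63, 71.6, 294 and 1210.5 (4.11-fold) and the folate receptor Folr2 with 269, 538, 1663 and 4094 (2.46-fold). For Clec10a, day 7 was below day 4, and for Mgl2, Ccl8, Folr2 and Cbr2 it was the highest of the 4 arrays. The lower ones were led by Arg1, the arginase that marks the same state, with 284, 264, 693 and 52.6 (13.2-fold lower), and Chil3, a chitinase-like protein of macrophages and neutrophils, with 13391, 8521, 4147 and 550.2 (7.54-fold lower). Socs2, Il4ra, the interleukin 4 receptor, and Tgm2, a transglutaminase, were 2.50-fold, 2.26-fold and 2.08-fold lower, and Ccl24 was at least 2.52-fold lower. After median scaling Tgm2 was under 2-fold, with a log2 difference of -0.88.

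Macrophage markers differed in both directions. Of 24 measured 0 were higher and 3 lower (1 and 3 after median scaling), with 11 positive and 13 negative and a median of -0.08 that became 0.10 after median scaling. The complement genes C1qa, C1qb and C1qc had differences of 0.09, 0.21 and 0.35, and Cd14, the lipopolysaccharide coreceptor, had the largest at 2226 on day 5 and 4197 on day 7 (past 2-fold after median scaling, with a log2 difference of 1.09). Cx3cr1, the fractalkine receptor, and Cd5l, a secreted macrophage protein, differed by -0.92 and -0.89. Axl and Marco were lower, at 1151 on day 5 and 381 on day 7 and 3353 on day 5 and 1276 on day 7, and Ccr2, the receptor of inflammatory monocytes, was at least 2.52-fold lower, where a second probe set differed by 0.35. Axl is a receptor for Gas6, and both are used to clear dying cells. Gas6 had signals of 419, 3237, 1694 and 5177 on the 4 arrays and was 3.06-fold higher than on day 5, while the other Gas6 receptor measured, Mertk, was level at 677 on day 5 and 691 on day 7. Cd55, which protects cells from complement, had 177, 114, 69.2 and 451, the largest positive difference of genes measured on both arrays (6.52-fold), with 2 other probe sets at 1.93 and 2.03.

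Other genes with large positive differences fell outside these groups. Pmp22, a membrane protein best known from myelin, was at 1795 on day 5 and 6115 on day 7, and Npl, which breaks down sialic acid, at 470.2 on day 5 and 1454 on day 7. Rnase4 and Ang encode secreted ribonucleases from neighbouring genes, and were at 1910.0 on day 5 and 5425 on day 7 and 827 on day 5 and 2303 on day 7. Qpct, a glutaminyl cyclase, was 3.39-fold higher, Coq8a, of coenzyme Q synthesis, 3.28-fold, the deacetylase gene Hdac9 3.12-fold and the metalloreductase gene Steap4 3.04-fold. Pcp4l1, Rnase6, Grap, Prr15, Ctnnd2, Bdh2 and Hacd4 were between 4.33-fold and 2.85-fold higher. Of the genes at the floor on day 5, the transcription factor gene Tox2 was at least 5.22-fold higher on day 7, Sgsm3 and Ppm1j at least 3.32-fold and at least 3.30-fold, and Rasgrp3, Ntn1, Lix1, Pla2g5, Kif5c, Ino80b and Crabp1 between at least 2.80-fold and at least 2.32-fold.

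Cholesterol synthesis was the metabolic pathway with the largest positive median. Of 22 measured genes 3 were at least 2-fold higher (6 after median scaling), 0 were lower and 21 had a positive difference, with a median of 0.67 and 0.79 relative to all genes. The enzymes run from Hmgcs1, which makes HMG-CoA, through Fdps, which makes farnesyl diphosphate and is the target of nitrogen-containing bisphosphonates, and Sqle and Lss, which form the first sterol, to Dhcr7. Hmgcs1 was at 2279 on day 5 and 3437 on day 7, Fdps at 1672 on day 5 and 3869 on day 7 (2.31-fold higher), Sqle at 763 on day 5 and 1439 on day 7 and Lss at 218 on day 5 and 448 on day 7 (2.05-fold higher). Msmo1, a sterol oxidase, had a difference of 0.92 and Nsdhl, a sterol dehydrogenase, one of 0.87. Each enzyme in the list had a positive difference in the probe set used, and 2 other Lss probe sets differed by -0.12 and 1.26. Among the regulators, Insig1, which holds the transcription factor SREBP in the endoplasmic reticulum and is itself an SREBP target, was at 698 on day 5 and 1504 on day 7 (2.16-fold higher), while Insig2 and Scap had differences of -0.13 and 0.04. Srebf2, the gene of SREBP2, was at 361 on day 5 and 459 on day 7.

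**Figure D3:**
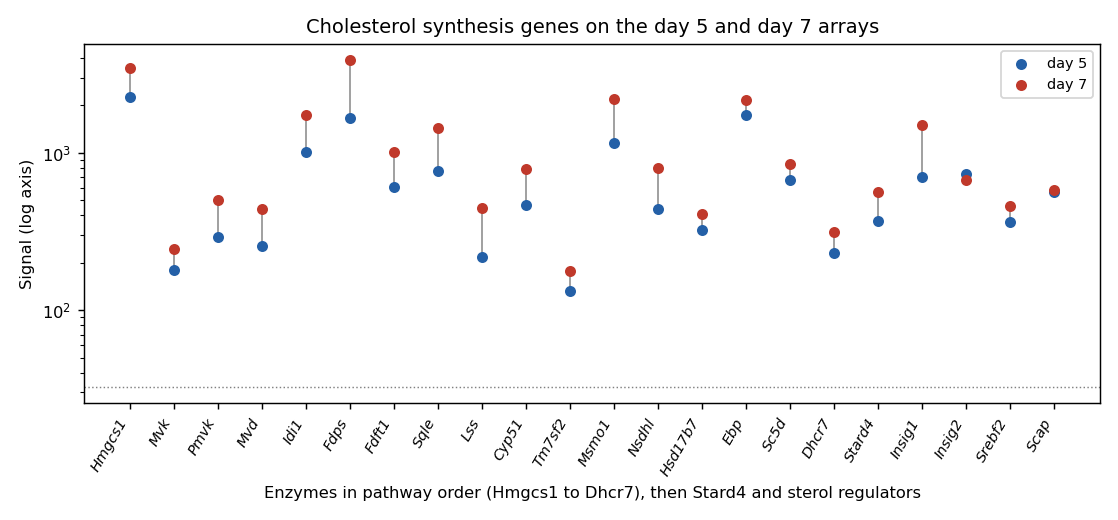
Signal (log axis) of 22 genes of cholesterol synthesis and its regulation on day 5 (blue) and day 7 (red), with 1 array per day, enzymes in pathway order and the floor of 32.4 as a dotted line. Day 7 lies above day 5 for each gene except Insig2, and the gap is widest for Fdps.

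The promoters of 3 members are shown because the pathway is known to be driven by SREBP together with NF-Y. Each is the 250 bases before the RefSeq gene start on the plus strand (GRCm38.p6), 5′ to 3′, with capitals for the NF-Y box CCAAT, written as its reverse complement where it lies on the minus strand, and for the sterol regulatory element core CACCCCAC. They lie at chr13:119690101-119690350 (Hmgcs1), chr5:28071162-28071411 (Insig1) and chr10:76531355-76531604 (Lss).
Hmgcs1: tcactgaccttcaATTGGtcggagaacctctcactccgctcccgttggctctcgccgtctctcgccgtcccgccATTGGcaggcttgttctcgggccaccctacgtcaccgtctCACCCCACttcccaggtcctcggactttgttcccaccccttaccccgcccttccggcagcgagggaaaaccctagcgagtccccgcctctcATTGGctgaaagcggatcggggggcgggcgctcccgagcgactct
Insig1: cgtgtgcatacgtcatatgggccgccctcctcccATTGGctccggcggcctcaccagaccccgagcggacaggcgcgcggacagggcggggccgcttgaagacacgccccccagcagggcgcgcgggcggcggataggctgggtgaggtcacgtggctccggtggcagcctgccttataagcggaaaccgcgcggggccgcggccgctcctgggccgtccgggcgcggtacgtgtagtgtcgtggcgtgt
Lss: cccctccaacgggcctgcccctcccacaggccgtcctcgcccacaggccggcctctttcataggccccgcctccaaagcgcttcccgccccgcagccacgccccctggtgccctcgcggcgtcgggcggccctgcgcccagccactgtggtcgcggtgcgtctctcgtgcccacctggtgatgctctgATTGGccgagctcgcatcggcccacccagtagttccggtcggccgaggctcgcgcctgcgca
An NF-Y box on either strand was found in 17 of the 18 members with a promoter in the table (94.4%), against 37.5% of 27025 genes with one. The sterol element core was found in 1 of the 18, Hmgcs1, where it starts 136 bases before the gene start, against 2.98% of genes. These are matches of letters, and no binding was measured.

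The neighbouring lipid pathways were mixed. Of 20 genes of fatty acid synthesis and desaturation 2 were higher, the desaturase Fads2 at 112 on day 5 and 253 on day 7 and the acyl-CoA synthetase Acsl3 at 263 on day 5 and 553 on day 7, and 1 was lower, Fads3 at 346 on day 5 and 137 on day 7. The stearoyl-CoA desaturase genes lay apart, with Scd2 at 3145 on day 5 and 5640.4 on day 7 and Scd1, named after its value was seen, at 673 on day 5 and 383 on day 7. Of 11 genes of sterol efflux and LXR targets none passed 2-fold, with Nr1h3, the gene of LXR alpha, at 235 on day 5 and 123 on day 7 and the sterol exporter Abcg1 at 507 on day 5 and 866 on day 7, where a second probe set of Abcg1 differed by -0.02.

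Subunits of the mitochondrial respiratory chain and ATP synthase were slightly higher almost throughout. Of 46 subunits 44 had a positive difference (46 after median scaling) and 0 passed 2-fold, with a median of 0.15 and a range from -0.05 to 0.43. Relative to all genes the median was 0.27. Genes whose higher signal of both days was between 1000 and 5000 had a median of -0.04, and those above 5000 one of -0.004, so bright genes as such lay nearer to 0. The 4 subunits of succinate dehydrogenase had differences of 0.28 (Sdha), 0.42 (Sdhb), 0.37 (Sdhc) and 0.43 (Sdhd), and were set together after their values were seen. Regulators of mitochondrial biogenesis did not share this, with 5 of 18 positive and a median of -0.14 (0.03 after median scaling). Cytosolic ribosomal protein genes, by comparison, had a median of -0.06 over 31 genes (0.12 after median scaling) and none past 2-fold.

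Genes of mitosis and of DNA synthesis differed in sign. All 29 measured genes of G2 and mitosis had a positive difference, as deposited and after median scaling, with a median of 0.33 (0.44 relative to all genes) and none past 2-fold. The mitotic cyclin Ccnb2 had signals of 1118 on day 5 and 1941 on day 7, Cdc20, which activates the anaphase-promoting complex, 1699 on day 5 and 2876 on day 7, and the cytokinesis kinesin Kif23 603 on day 5 and 958 on day 7. For Cdc20, 2 other probe sets were near level, at -0.11 and 0.13. Of 33 S phase genes 25 had a negative difference, with a median of -0.17 and 0 past 2-fold. After median scaling 17 of the 33 were positive and the median was 0.01, so the sign of the S phase list depends on the scaling. Uhrf1, which maintains DNA methylation, and Ccne2, a cyclin of S phase entry, differed by -0.61 and -0.54, and Chaf1b, a chromatin assembly factor, by 0.57. On days 1, 4, 5 and 7 the summed signal of the mitosis genes was 33944, 20115, 31456 and 41408, and that of the S phase genes 34748, 30849.6, 57524 and 52917. Among regulators of cell cycle entry, Ccnd2 and the MYC antagonist Mxd1 were 2.01-fold and 2.55-fold lower, and the CDK inhibitor Cdkn2c had a difference of 0.83.

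**Figure D4:**
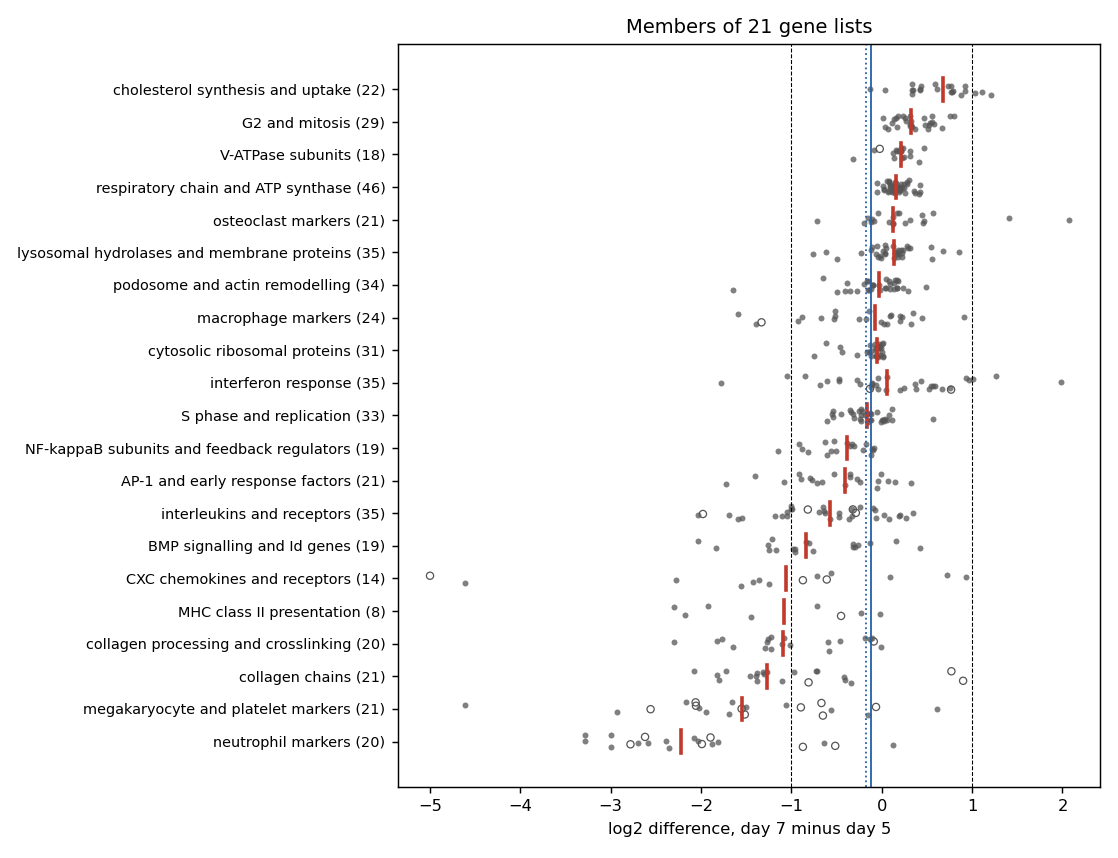
Log2 difference, day 7 minus day 5, of the measured members of 21 gene lists (number in brackets), where filled points are genes above the floor on both arrays, open points genes at the floor on 1 of them and red bars the list medians. Dashed lines mark 2-fold and the solid blue line the median of all genes (-0.11). The dotted line marks the difference that becomes 0 after median scaling (-0.18). The medians of the cholesterol and mitosis lists lie farthest to the right, and that of the neutrophil list, -2.22, farthest to the left.

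Several CXC chemokines, interleukins and single genes of prostaglandin synthesis were lower on day 7. Many CXC chemokines attract neutrophils through the receptor Cxcr2. Of 14 measured CXC chemokines and receptors 7 were lower and 0 higher (7 and 1 after median scaling), with a median of -1.06. Cxcl3 had signals of 369, 341, 1037 and 20.6 on days 1, 4, 5 and 7 and was at least 32.0-fold lower, the largest fold of all genes, from its highest level on day 5 to below the floor on day 7. Cxcl2 had 2281, 626, 858 and 177 (4.84-fold lower), Cxcl1 175, 254, 405 and 171 (2.37-fold lower) and Cxcl5 262, 2648, 3683 and 1434 (2.57-fold lower). Ppbp, which platelets also store, was 24.4-fold lower, the receptor Cxcr4 2.94-fold and Cxcl14 2.68-fold, with a second probe set of Cxcl14 at -0.35. Cxcl12, the chemokine that holds blood progenitors in the marrow, did not follow, at 5264 on day 5 and 5612 on day 7, nor did Cxcl10, an interferon target, at 108 on day 5 and 206 on day 7.

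The promoters of Cxcl1, Cxcl2 and Cxcl3 are shown because these 3 of the 6 lower CXC members with a promoter in the table hold the NF-kappaB site GGGANTTTC (either strand), which 1.11% of all genes in the table hold. Each is the 250 bases before the RefSeq gene start on the plus strand (GRCm38.p6), 5′ to 3′, with the site in capitals. They lie at chr5:90890995-90891244 (Cxcl1), chr5:90903649-90903898 (Cxcl2) and chr5:90785851-90786100 (Cxcl3), and the site starts 71, 97 and 73 bases before the gene start. The 3 genes lie near each other on the same chromosome, and CXC members that were not lower were not looked at. The share therefore does not tie the site to being lower, and no binding was measured.
Cxcl1: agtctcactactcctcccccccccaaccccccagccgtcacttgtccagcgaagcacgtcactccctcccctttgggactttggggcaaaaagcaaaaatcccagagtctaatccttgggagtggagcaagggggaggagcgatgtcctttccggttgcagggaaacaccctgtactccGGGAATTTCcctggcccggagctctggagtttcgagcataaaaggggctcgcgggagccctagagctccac
Cxcl2: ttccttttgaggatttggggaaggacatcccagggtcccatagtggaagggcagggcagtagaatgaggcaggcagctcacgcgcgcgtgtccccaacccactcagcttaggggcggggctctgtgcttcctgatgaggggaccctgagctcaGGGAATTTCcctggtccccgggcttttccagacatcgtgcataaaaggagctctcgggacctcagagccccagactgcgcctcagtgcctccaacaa
Cxcl3: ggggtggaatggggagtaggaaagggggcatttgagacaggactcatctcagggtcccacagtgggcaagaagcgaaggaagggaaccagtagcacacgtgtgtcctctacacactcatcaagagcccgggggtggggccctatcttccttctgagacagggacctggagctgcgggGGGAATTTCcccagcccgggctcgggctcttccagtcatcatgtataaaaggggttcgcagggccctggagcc
None of the 3 lower prostaglandin and leukotriene genes held these letters in the same window, which says nothing of whether NF-kappaB acts on them.

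Of 35 interleukins and their receptors 11 were lower (6 after median scaling) and 0 higher. Il6 was at least 3.94-fold lower, the inflammatory cytokine Il1a 2.92-fold lower at 121 on day 5 and 41.4 on day 7, and both interleukin 1 receptors were lower, Il1r1 at 333 on day 5 and 110.1 on day 7 and the decoy Il1r2 at 109 on day 5 and 33.8 on day 7. Csf3r, the G-CSF receptor of neutrophils, was 4.11-fold lower. Tnf, an inflammatory cytokine that promotes osteoclast formation, was at 286 on day 5 and 329 on day 7. Of 17 genes of prostaglandin and leukotriene synthesis 3 were lower and 1 higher, and the list was split in sign, with 8 positive and 9 negative and a median of -0.19 (-0.01 after median scaling). The inducible cyclooxygenase Ptgs2 had signals of 375, 433, 597 and 51.6 on days 1, 4, 5 and 7 (11.6-fold lower) and the prostaglandin E synthase Ptges 87.7, 289, 582 and 219 (2.66-fold lower). The prostaglandin D synthase Hpgds went the other way, with 370.0, 862, 447 and 1133 (2.54-fold higher). Ptges and Hpgds turn the same intermediate into different prostaglandins.

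The CC chemokines, which attract monocytes, differed from the CXC group: 2 of 17 genes were higher and 3 lower. Ccl8 was 4.11-fold higher and Ccl3, made by osteoclasts and macrophages, 2.22-fold higher at 1490.3 on day 5 and 3311 on day 7. Ccl4 and Ccl12, named after their values were seen, had differences of 0.84 and 0.83 and passed 2-fold after median scaling. Interferon response genes were 3 of 35 higher and 2 lower (5 and 1 after median scaling). Ifi27l2a had signals of 3941, 501, 414 and 1639.9 on the 4 arrays (3.96-fold higher than on day 5), the antiviral gene Rsad2 9488, 276, 169 and 407 (2.41-fold) and Ifit1 601, 83.5, 52.5 and 106 (2.01-fold). All of these remained below their day 1 level. Slfn4 and Ifi204 were 3.44-fold and 2.06-fold lower, so the list did not act as 1 group.

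The genes of MHC class II, which present antigen, were lower again. Of 8 measured genes 4 were lower and 0 higher: H2-Aa had signals of 8685, 5896, 1066 and 217 on days 1, 4, 5 and 7, H2-Eb1 6357, 3014, 506 and 112, H2-Ab1 4708, 2369, 476 and 175 and their chaperone, the invariant chain Cd74, 4439, 2808, 693 and 183. Each signal was lower than that of the array before it, and day 7 was 4.90-fold, 4.51-fold, 2.72-fold and 3.80-fold lower than day 5.

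Genes of marrow stroma, the mesenchymal cells that make matrix and RANKL, were below their day 5 level on day 7. Of 27 stromal and osteoblast markers 15 were lower (13 after median scaling) and 0 higher, with a median of -1.15. Tnfsf11, the gene of RANKL itself, had signals of 82.8, 593, 836 and 207 on days 1, 4, 5 and 7 (4.05-fold lower than on day 5), with a second probe set at -1.98, and Csf1, the gene of M-CSF, 684, 2228, 2195 and 805 (2.73-fold lower). Both proteins were also added to the medium. Alpl, the alkaline phosphatase of osteoblasts, was at 249.6 on day 5 and 77.3 on day 7, the mesenchymal transcription factor Prrx1 at 978 on day 5 and 334 on day 7 and the leptin receptor Lepr at 176 on day 5 and 52.8 on day 7. Cxcl12 and Mgp, which are stromal too, were level at 5264 and 5612 and 6877 and 7415, and were singled out after their values were seen.

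Matrix genes followed the same direction. Of 21 collagen chains 12 were lower and 0 higher (1 higher and 11 lower after median scaling), with a median of -1.27: fibrillar Col1a1 and Col3a1 were at 1703 on day 5 and 489.8 on day 7 and at 5762 on day 5 and 2317 on day 7, Col5a3 at 163 on day 5 and 38.8 on day 7 and Col6a3 at 824 on day 5 and 234 on day 7. All 20 genes that fold, hydroxylate, trim or crosslink collagen had a negative difference, 12 past 2-fold. They included the collagen chaperone Serpinh1 at 5147 on day 5 and 1516 on day 7, the propeptidase enhancers Pcolce2 and Pcolce (4.91-fold and 2.45-fold lower) and the crosslinking oxidase Loxl1 (3.54-fold lower). Of 31 other matrix genes 12 were lower, such as Vcan at 322 on day 5 and 64.6 on day 7 and Tnc at 491 on day 5 and 107 on day 7, and 1 was higher, Fmod, at 34.7 on day 5 and 74.5 on day 7. Of 16 contractile and myofibroblast genes 6 were lower, led by the connective tissue growth factor Ccn2 at 3988 on day 5 and 1240.0 on day 7.

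Several growth factor pathways that act in stroma had lower members too. Of 19 BMP pathway and Id genes 6 were lower, with the feedback inhibitor Smad6 at 280.1 on day 5 and 68.3 on day 7 (4.10-fold lower), Id1 3.57-fold lower, Id3 2.38-fold lower and the receptor Bmpr1a 2.25-fold lower. All 23 measured Wnt ligands, receptors and inhibitors had a negative difference, 9 past 2-fold (19 negative and 5 past 2-fold after median scaling). Wnt5a was at least 4.42-fold lower, Wnt4 3.39-fold at 149.9 on day 5 and 44.2 on day 7, and Lgr4 and Rspo3, a receptor and its ligand that strengthen Wnt signals, 2.60-fold and 2.52-fold lower. Of 20 genes of TGF-beta and activin signalling 4 were lower, among them Tgfb2 and the activin subunit Inhba, at least 3.23-fold and at least 2.89-fold. Of 12 genes of the insulin-like growth factor system 3 were lower, led by the adaptor Irs1 at 1056 on day 5 and 343 on day 7, and 1 was higher, Igf2, at 187 on day 5 and 424 on day 7. The summed signal of stromal markers was lower on the same array, and its part in these differences was not tested.

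Of 11 measured genes listed for the vitamin D response 3 were lower and 0 higher, although vitamin D3 stayed in the medium. Vdr, the receptor, had signals of 76.4, 347, 243 and 96 on days 1, 4, 5 and 7 (2.53-fold lower than on day 5), with a second probe set at -1.93. Cyp24a1, the enzyme that degrades the hormone and a standard marker of its action, had 605, 3559, 3689.6 and 1861, a difference of -0.99, with a second probe set at -1.36. Camp and Tnfsf11, the other lower members, are also on the neutrophil and stromal lists. Whether Camp responds to vitamin D in these mouse cells was not tested. Cd14, also on the vitamin D list, had the largest positive difference, 0.91.

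Neutrophil genes had the lowest median of the cell type lists. Of 20 neutrophil markers 16 were lower and 0 higher, with a median of -2.22, and their summed signal on days 1, 4, 5 and 7 was 155113, 86641, 56248 and 20299. Elane, the elastase, was at or near the floor on days 5 and 7, and no marker was at 0. By granule type, the primary granule genes had 5 of 8 lower, such as Mpo with 9325, 1418, 293 and 57.4 and Prtn3 with 4713, 649.8, 339 and 64.5. The secondary and tertiary granule genes had 10 of 18 lower, with Ltf at 11406, 5102, 1705 and 175 and Ngp at 14556, 11081, 5261 and 813. The genes of late maturation and surface proteins had 12 of 15 lower, with S100a9 at 19373, 17694, 11411 and 1434 S100a8 at 12457 on day 5 and 2079.7 on day 7 and the protease inhibitor Slpi at 5733 on day 5 and 1047 on day 7. Mpo was far below its day 1 level by day 4, whereas S100a9 was still near it. Mmp9 was the 1 marker not negative, and it is on the osteoclast list as well.

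**Figure D5:**
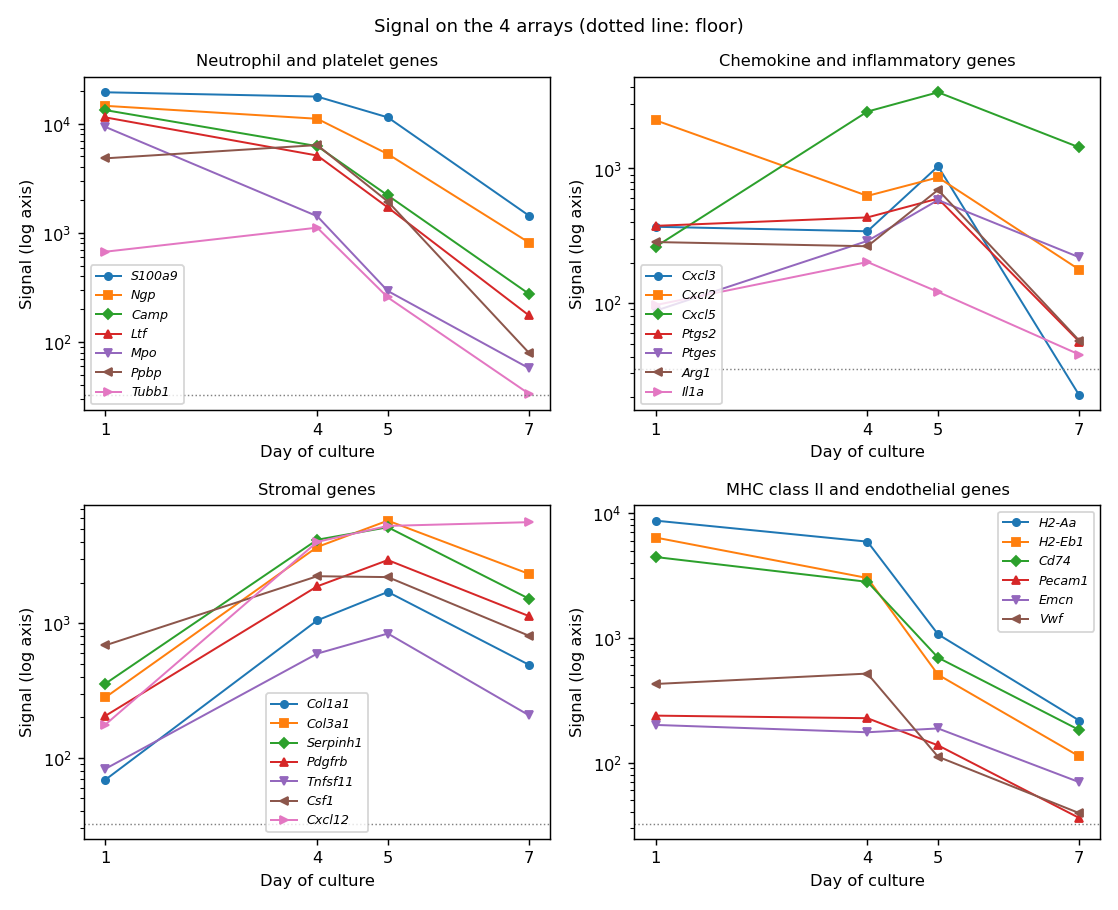
Signal (log axis) on days 1, 4, 5 and 7 for genes of neutrophils and platelets, chemokines and inflammation, stroma, and MHC class II and endothelium, with 1 array per day and the floor of 32.4 as a dotted line. Neutrophil genes declined from day 1 on, whereas Cxcl3, Ptgs2, Arg1 and the collagen genes were highest on day 5, and Cxcl12 was level between days 5 and 7 after far lower signal on day 1.

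Most measured markers of other blood lineages and of vessel cells had negative differences too. Of 21 megakaryocyte and platelet markers 14 were lower, with Ppbp at 4809, 6359.7, 1933 and 79.3 and the platelet tubulin Tubb1 at 671, 1114, 255 and 33.5 on the 4 arrays, and the von Willebrand receptor subunit Gp1bb at least 5.89-fold lower than on day 5. Of 7 measured markers of eosinophils, basophils and mast cells 2 were lower, and 13 more were at the floor on both days. The lower ones were Prg2 of eosinophils, at 334 on day 5 and 35.8 on day 7, and Mcpt8 of basophils, at 603 on day 5 and 75.9 on day 7. Of 14 B cell markers 7 were lower and 3 had a positive difference, with 1 past 2-fold higher after median scaling. Their summed signal was nearly level, at 4841 on day 5 and 4799 on day 7. Among the lower ones were Cd79b at 186 on day 5 and 69.6 on day 7 and Ms4a1, which was at least 3.23-fold lower. Of 12 endothelial markers 4 were lower and 0 higher, with Emcn at 188 on day 5 and 69.7 on day 7. Only 3 of 15 T and NK cell markers named on the array and 5 of 17 erythroid markers were above the floor on either day, and none of these passed 2-fold. The neutrophil, platelet, stromal and endothelial lists were thus lower on the same array as the CXC chemokines, interleukins and prostaglandin genes, and their part in those differences was not tested.

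Stress and nutrient genes showed a small number of large differences. In the hypoxia list 3 of 23 were lower, the peptide Adm at 389 on day 5 and 151 on day 7, the growth inhibitor Ddit4 at 1643 on day 5 and 647 on day 7 and Vegfa at 378 on day 5 and 178 on day 7, while Pdk1 and Ndrg1 had differences of 0.74 and 0.88. The glucose transporter Slc2a3 had signals of 5482, 1904, 740.2 and 186 on the 4 arrays and was 3.98-fold lower than on day 5, and the aldolase Aldoc had 117, 214, 279.6 and 949 and was 3.39-fold higher. No other of 17 glycolysis genes passed 2-fold. The cystine importer Slc7a11 was 3.39-fold lower at 232 on day 5 and 68.4 on day 7, the serine synthesis enzyme Phgdh 2.22-fold lower at 682 on day 5 and 307 on day 7 and the branched-chain aminotransferase Bcat1 7.58-fold lower at 409.7 on day 5 and 54 on day 7. Unfolded protein response genes had 0 of 26 past 2-fold, and genes of iron and haem 0 of 21.

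Proteases and clotting factors of the extracellular space also differed in opposite directions. Plau, the urokinase that activates plasminogen, had signals of 41.7, 156, 725 and 1861 on the 4 arrays and was 2.57-fold higher than on day 5, with a second probe set at 1.28. Its inhibitor Serpinb2 was 4.10-fold lower at 1438 on day 5 and 351 on day 7, and the protease inhibitor Tfpi2 3.84-fold lower at 1883 on day 5 and 490.3 on day 7. The fibrin-crosslinking F13a1 was 3.65-fold lower at 5476 on day 5 and 1499 on day 7, and in all 7 of the 15 genes of this list were lower. Other genes with large negative differences, outside the groups above, were the granzyme Gzme at 2009.5 on day 5 and 344 on day 7, the netrin receptor Unc5b at 359 on day 5 and 68.5 on day 7, the Wnt inhibitor Apcdd1 at 781 on day 5 and 151 on day 7, the pyrin gene Mefv at 312 on day 5 and 61 on day 7 and the imprinted zinc finger gene Plagl1 at 461 on day 5 and 90.5 on day 7.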

How the data were processed

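Total RNA (250.0 ng per sample, as biotinylated cRNA) was hybridised to 1 Affymetrix mouse array per time, per the labels' protocols. The values deposited by the authors are linear signal intensities per probe set, and the submitters' processing notes name GCOS 1.4 and MAS5. Their scaling target was not given in the sources used here. Of 45037 probe sets, 34945 had 1 gene symbol, 932 several and 9160 none, and the last 10092 were not named. Entrez numbers of 34741 matched RefSeq (GRCm38.p6), which updated 0 symbols. Each of 18193 genes was represented by the probe set whose mean log2 signal over 4 arrays was highest.

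From the deposited intensities, signals below 32.4, the pooled median of all arrays, were raised to it and log2 differences were taken. A gene at the floor on 1 array has a bound ("at least"). The threshold was 2-fold, a rule of size without a test. Detection calls were not used here, and the number of arrays limits the precision. The share of probe sets above the floor was 52.6%, 50.9%, 49.9% and 46.6% on days 1, 4, 5 and 7. Median scaling added 0.18 to each log2 difference of genes above the floor. The calculation was tested on simulated data.

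Genes were named by rule: the 25 largest differences in each direction among genes measured on both arrays, the 10 with the highest signal in each direction among the others, up to 6 members per list, and a short fixed set. Named outside the rule, after their values were seen, were C1qa, C1qb, C1qc, Ccl4, Ccl12, Cd36, Col3a1, Cxcl1, Cxcl10, Cxcl12, Cxcr2, Dhcr7, Elane, Fmod, Folr2, Hmgcs1, Igf1, Insig2, Mertk, Mgp, Scap, Scd1, Sdha, Socs2, Tgm2, Timp2 and Tnf. The 75 gene lists and the comparison were chosen with earlier results of these data known. Promoters came from a RefSeq table. Python 3.11.15, numpy 2.4.6, pandas 2.3.3 and matplotlib 3.10.9 were used.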

Additional observations from a re-analysis of the deposited data

How the results depend on the processing

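The number of genes at least 2-fold higher on day 7 moved from 99 to 465 with a floor at the 25th percentile (8.43), to 150.0 with no floor and 16 added to each signal, to 183 with median scaling and to 195 with quantile normalization. The number lower moved from 678 to 1354 with the lower floor, to 423 with quantile normalization and to 421 with the mean over the probe sets of a gene. A floor at the 60th percentile (68.9) gave 68 higher and 467 lower, and leaving out probe sets that can match several transcripts gave 94 and 599. Of the 99 higher genes, 98 were also called with the lower floor and 73 with 16 added, and of the 678 lower genes 674 and 543. No value changed sign past the threshold under any alternative run. For named genes, 2557 alternative values lay within 0.26 (log2) of the main value, the spread between a gene's own probe sets, and 420.0 lay farther off. No paired analysis was possible because each time had 1 array, and for the same reason no array could be left out. Low signals limit what can be seen: probe sets of a gene differed by an SD of 0.37 at mean signals up to 100, and 2-fold differences near the floor are bounds.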

Other observations

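Several smaller groups are not part of the account above. Dbp, a transcription factor that reads out the circadian clock, had signals of 249.6, 533, 115 and 377 on days 1, 4, 5 and 7 and was 3.28-fold higher than on day 5, with a second probe set at 1.47. No other of 14 measured clock genes passed 2-fold, and the next largest difference was that of Nfil3, a repressor of the same sites, at 218 on day 5 and 119 on day 7. Among 12 genes of metallothioneins and zinc transport, Mt3 was 2.05-fold higher at 994 on day 5 and 2041 on day 7 and the zinc importer Slc39a14 2.32-fold lower at 648 on day 5 and 279 on day 7. In the BCL2 family the p53 target Bbc3 was 2.04-fold higher at 81.5 on day 5 and 166 on day 7 and Bok 2.34-fold lower at 225 on day 5 and 96.2 on day 7, with the other 12 of 14 members under 2-fold. Of 30 semaphorins, plexins, ephrins and Eph receptors 5 were lower and 0 higher, among them Sema3e at 306 on day 5 and 98.6 on day 7 and Sema4a at 954 on day 5 and 427 on day 7. Of 17 measured integrin subunits 3 were lower and 0 higher (1 and 1 after median scaling), and 14 had a negative difference. The platelet integrin gene Itga2b was 4.05-fold lower at 469 on day 5 and 116 on day 7, and Itga1 2.22-fold lower at 153 on day 5 and 68.9 on day 7 but under 2-fold after median scaling. Itga4 had the largest positive difference, 0.89 (1.07 after median scaling), at 397 on day 5 and 738 on day 7, with 2 other probe sets at -0.09 and 0.60.

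Of 75 gene lists, 17 had no member past 2-fold, 18 had at least 1 higher and 55 at least 1 lower. Among all 11611 measured genes 0.853% were higher and 5.84% lower. How many lists would hold such a member at these shares was not worked out, so the counts of lists are description only. Of 10092 probe sets without a single gene symbol, 2457 were above the floor on day 5 or day 7, of which 11 were past 2-fold in the higher and 135 in the lower direction.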
